A study of Homo sapiens with 60 samples.

Results

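Levels of 10 extracellular matrix genes were followed across an RNA-seq study of the human astrocytoma cell line SW1783 exposed to herbal extracts for 24 h. The genes are TNC, FN1, ABI3BP, THBS1, THBS2, SPARC, POSTN, FBN1, LOX and LOXL2, chosen by name, with earlier results of these data known, out of 60675 genes in the count table. Each had exactly 1 row, and all 10 were among the 17851 genes with enough counts to be tested. Between extracts and doses the changes were uneven. THBS1 fell 2.07-fold at the high dose of Soshiho-tang, LOX rose 1.45-fold at the high dose of Schisandrae Fructus, and THBS2 fell at the high dose of 3 extracts. TNC, FN1, FBN1 and ABI3BP did not pass the test against the low dose of any of the 6 extracts that had replicates.

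The table holds 60 libraries in 25 groups. Water extracts of the decoctions Yijin-tang and Soshiho-tang, and ethanol extracts of Zizyphi Semen, Longan Arillus and Liriopis seu Ophiopogonis Tuber, were each given at 20, 100 and 500 µg/mL. The ethanol extract of Schisandrae Fructus was given at 12.4, 62 and 310 µg/mL, that of Polygalae Radix at 1.2, 6 and 30 µg/mL, and that of Aucklandiae Radix at 6.4, 32 and 160 µg/mL. The submitters' design text says that the IC20 (a concentration that inhibits the cells to a set degree) served as the high dose where it lay below 500 µg/mL. The vehicle was 0.1% DMSO in the sample labels, whereas the design text gives another concentration. Each group had 3 libraries, except Soshiho-tang with 2 per dose and Polygalae Radix and Aucklandiae Radix with 1 per dose. All groups share 1 cell line grown in serum-containing L-15 medium, and no label says whether libraries of a group came from separate cultures, so p-values measure the spread between these libraries, which may be technical.

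Library totals ran from 18.73 to 35.52 M counts, with a median of 25.78 M. Low, medium and high doses of an extract share a library-name set, whereas the 3 vehicle libraries form a set of their own, so exposure and library set cannot be told apart in any comparison with the vehicle. The label of the cells was checked against markers. The astroglial markers GFAP and S100B averaged 0.0346 and 0.0693 CPM (counts per M counts of the library, after normalisation) in vehicle cells, while VIM averaged 4770 CPM, CD44 2810 CPM, SOX9 83.5 CPM and SLC1A3 30.8 CPM. The defining astrocyte markers were thus nearly absent. Of the mural and fibroblast list PDGFRB averaged 72.9 CPM, LUM 19.2 CPM, PDGFRA 18.6 CPM, DCN 9.27 CPM and RGS5 2.81 CPM. The markers of other cells also differed widely in level. Of the endothelial list KDR averaged 32.6 CPM and CDH5 0.0346 CPM, of the immune list CD68 195 CPM, PTPRC 9.51 CPM and CD14 0.289 CPM, and of the epithelial list KRT18 112 CPM, KRT8 15.4 CPM and EPCAM 0.0332 CPM. Of the neuronal list TUBB3 averaged 101 CPM, SNAP25 28 CPM and RBFOX3 0.134 CPM. In such bulk RNA, fewer cells of a kind and less RNA per cell cannot be told apart.

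As background, the genes encode secreted proteins that build, decorate or cross-link the matrix. Fibronectin (FN1) forms fibrils that bind integrins and collagens, and fibrillin 1 (FBN1) forms microfibrils that hold latent TGF-beta. Tenascin C (TNC), the thrombospondins (THBS1, THBS2), SPARC and periostin (POSTN) are matricellular proteins, which tune adhesion and signalling rather than bear load. TNC is known for its abundance in the matrix of gliomas, THBS1 for activating latent TGF-beta, and lysyl oxidase (LOX) and its relative LOXL2 for oxidising lysines of collagen and elastin so that the fibres cross-link.

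The promoters of THBS1 and LOX, which had the largest fall and the largest rise between high and low dose in the replicated extracts, and of FN1, the most abundant of the 10 in CPM, are shown for the results below. The sequences come from RefSeq (GRCh38.p14) and hold the bases before the RefSeq start that lie outside the gene's GENCODE 29 span. They run 5′ to 3′ on the gene's strand, and capitals mark matches to 7 motifs searched on both strands in the 250 bases before the start. The windows are chr15:39580829-39581078 (plus strand) for THBS1, chr5:122078361-122078509 (minus strand) for LOX and chr2:215436173-215436318 (minus strand) for FN1.
THBS1: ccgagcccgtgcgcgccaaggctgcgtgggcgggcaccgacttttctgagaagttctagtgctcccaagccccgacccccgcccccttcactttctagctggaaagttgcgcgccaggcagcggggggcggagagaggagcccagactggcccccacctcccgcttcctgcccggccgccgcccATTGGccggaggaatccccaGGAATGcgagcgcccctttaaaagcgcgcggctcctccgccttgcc
LOX: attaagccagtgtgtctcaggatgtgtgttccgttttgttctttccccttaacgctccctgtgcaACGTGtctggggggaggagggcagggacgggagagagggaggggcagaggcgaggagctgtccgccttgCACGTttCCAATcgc
FN1: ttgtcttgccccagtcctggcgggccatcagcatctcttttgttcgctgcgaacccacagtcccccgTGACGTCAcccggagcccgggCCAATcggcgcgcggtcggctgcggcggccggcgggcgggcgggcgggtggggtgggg

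The motifs were the TATA box TATAAA, present in 10.72% of 35116 human promoter windows of the same length, the CCAAT box CCAAT (32.01%), the AP-1 motif TGANTCA (6.57%), the cAMP response element TGACGTCA (1.65%), the TEAD motif GGAATG (11.89%), the NF-kB motif (0.53%) and the HIF core ACGTG (18.51%). None of these motifs contains another. The THBS1 window held a CCAAT box 66 bases and a TEAD motif 46 bases before the start. The LOX window held 4 HIF cores, at 185, 116, 98 and 42 bases before the start, of which the last 2 lie inside the GENCODE span and are not printed. LOX has 3 starts in the table, and the one farthest upstream was used. THBS2, whose window lies mostly inside the GENCODE span and is not printed, held 2 TEAD motifs at 103 and 91 bases. Matches in these windows describe letters, not bound sites.

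Per length, SPARC was the highest of the 10 in vehicle cells. Its level was 483 CPM per kilobase of merged exons, ahead of FN1 at 259, THBS1 at 207, LOXL2 at 196, TNC at 79.2, FBN1 at 39.6, THBS2 at 29.7, LOX at 20.2, POSTN at 16.7 and ABI3BP at 3.01 CPM per kilobase. The collagen-binding protein SPARC and the adhesive proteins FN1 and THBS1 thus led, and ABI3BP, a secreted protein named for binding an ABI family protein, stood last. The genes lie on several chromosomes, among them TNC at chr9:115019578-115118257, FN1 at chr2:215360440-215436172, THBS1 at chr15:39581079-39599466 and LOX at chr5:122063195-122078360 (GENCODE 29, GRCh38). Exons of TNC, THBS1, SPARC, LOX and LOXL2 overlap those of antisense genes, among them DEC1 at TNC, FSIP1 at THBS1, CLMAT3 at SPARC and SRFBP1 at LOX, and LOXL2 also shares exonic bases with ENTPD4 on its own strand. The strand setting of the authors' counting is not given in the sources used here, so a part of those counts is uncertain in origin.

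The first question was how each gene differed between the high and the low dose of 1 extract, a comparison made within 1 library set. Fold changes are on the log2 scale with their SE, and calls are at an adjusted p under 0.05 (edgeR's quasi-likelihood F test, Benjamini-Hochberg over all 17851 genes). With Soshiho-tang 6 of the 10 genes were called at the high dose, 5 lower and 1 higher, where 18.6% of all genes tested were called. With Schisandrae Fructus 3 were called, 2 lower and 1 higher, where 45.9% of all genes were, so that 3 of 10 is no more than the share of all genes. With Yijin-tang 1 of the 10 fell (6.97% of all genes were called), and with Zizyphi Semen 1 rose and 1 fell (5.96%). No gene of the 10 was called for Longan Arillus (0.868% of all genes) or Liriopis seu Ophiopogonis Tuber (0%). At an unadjusted p under 0.05 these last extracts gave 1 gene, THBS2, and 0 genes, and DESeq2 called 0 in both.

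**Figure D1:**
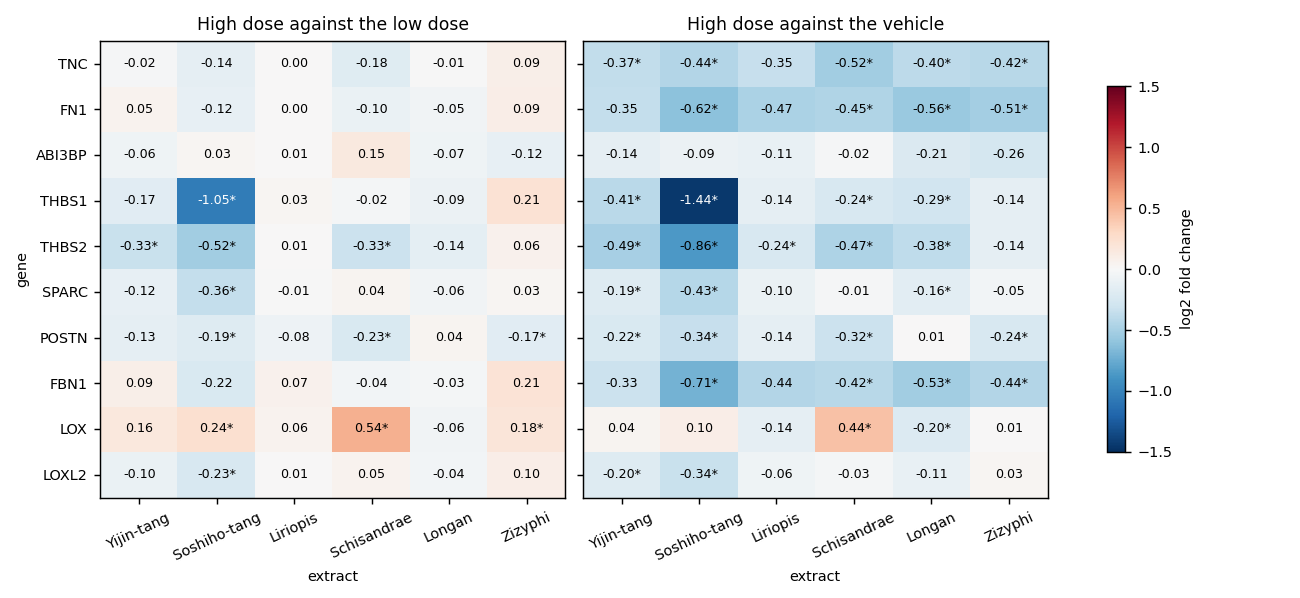
Log2 fold changes of the 10 genes (rows) at the high dose of 6 extracts (columns), against the low dose of the same extract (left) and against the vehicle (right); an asterisk marks an adjusted p under 0.05 in edgeR's quasi-likelihood test. The deepest cells are THBS1 in Soshiho-tang, at -1.05 against the low dose and -1.44 against the vehicle, and the strongest rise is LOX in Schisandrae Fructus, at 0.54 against the low dose.

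THBS1, thrombospondin 1, had the largest change of any of the 10 in the replicated groups. It had 698 and 699 CPM in the libraries at the high dose of Soshiho-tang, against 1440 and 1450 CPM at its low dose. The libraries of the doses were far apart. The log2 fold change was -1.05 ± 0.092 (SE, n = 2 each), with an adjusted p of 3.09e-12 in edgeR's quasi-likelihood test. At the medium dose it had 1360 and 1370 CPM, a log2 difference of -0.09 ± 0.091 from the low dose that did not pass the test (adjusted p = 1, edgeR). In Yijin-tang, the other water extract in the same library set, THBS1 had 1480, 1370 and 1450 CPM at the high dose, against 1700, 1570 and 1550 CPM at the low dose. That log2 difference of -0.17 did not pass the test, although the libraries did not overlap. The high doses of the ethanol extracts gave log2 differences between -0.09 and 0.21 for THBS1, none of which passed the test.

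The difference between these decoctions was itself tested. The high-against-low log2 change of THBS1 was lower in Soshiho-tang than in Yijin-tang by -0.89 ± 0.118 (adjusted p = 3.32e-07, edgeR), at the same doses of 500 and 20 µg/mL. For SPARC the difference was -0.24 ± 0.062 (adjusted p = 0.00743, edgeR), a call lost without the filter on low counts (adjusted p = 0.168). These were 2 of 10 genes, where 9.39% of all genes tested differed between the decoctions. For the other 8 genes the difference did not pass the test. For TNC its 95% interval ran from -0.47 to 0.23 and for FN1 from -0.65 to 0.31 on the log2 scale, so sizeable differences remain possible.

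THBS2, which like THBS1 is known as an inhibitor of vessel growth and which binds matrix metalloproteinase 2 for clearance, fell at 3 high doses. It had 105 and 104 CPM at the high dose of Soshiho-tang, against 149 and 152 CPM at the low dose (log2 fold change -0.52 ± 0.082, adjusted p = 3.74e-06, edgeR). For Yijin-tang it had 128, 137 and 140 CPM at the high dose, against 173, 168 and 170 CPM at the low dose (-0.33 ± 0.066, adjusted p = 0.000571, edgeR). For Schisandrae Fructus it had 136, 139 and 138 CPM at the high dose, against 173, 168 and 176 CPM at the low dose (-0.33 ± 0.066, adjusted p = 7.59e-05, edgeR). In all 3 extracts every high-dose library lay below every low-dose library. These 3 calls held in every fit that left out 1 library. In Liriopis seu Ophiopogonis Tuber, which shares a library set with Schisandrae Fructus, THBS2 had 158, 162 and 163 CPM at the high dose, against 162, 152 and 167 CPM at the low dose. The dose effect of Schisandrae Fructus was lower than that of Liriopis by -0.34 ± 0.094 (adjusted p = 0.0051, edgeR), at 310 against 500 µg/mL, so the doses were not matched.

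SPARC, which binds collagen and is released by cells that remodel matrix, was called in 1 extract. It had 1720 and 1750 CPM at the high dose of Soshiho-tang, against 2240 and 2200 CPM at the low dose (log2 fold change -0.36 ± 0.048, adjusted p = 1.3e-07, edgeR). In Yijin-tang it had 2110, 2090 and 1930 CPM at the high dose, against 2210, 2210 and 2240 CPM at the low dose. This difference of -0.12 narrowly missed the test (adjusted p = 0.0511, edgeR), although the libraries did not overlap. With length and GC content corrected, SPARC was called in 3 of 12 comparisons with the low dose, in place of 1. At the high doses of the ethanol extracts its log2 differences from the low dose lay between -0.06 and 0.04. SPARC was the steadiest of the 10 between the low-dose groups, whose 17 libraries spanned 2140 to 2250 CPM.

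POSTN, periostin, a TGF-beta-induced binder of collagen and integrins, had small falls. It had 76.6, 69 and 74.2 CPM at the high dose of Schisandrae Fructus, against 90.5, 81 and 85.6 CPM at the low dose (log2 fold change -0.23 ± 0.054, adjusted p = 0.000573, edgeR). For Soshiho-tang it had 71.6 and 72.5 CPM at the high dose, against 84.3 and 80.5 CPM at the low dose (-0.19 ± 0.066, adjusted p = 0.0363, edgeR). For Zizyphi Semen it had 82.1, 70.2 and 79.7 CPM at the high dose, against 86.1, 84.3 and 91.4 CPM at the low dose (-0.17 ± 0.055, adjusted p = 0.0465, edgeR). The groups did not overlap in any of the 3. The call in Schisandrae Fructus held without any 1 library, whereas that in Soshiho-tang was lost in all 4 fits that left 1 out (adjusted p from 0.0679 to 0.228), and that in Zizyphi Semen was lost in 5 of 6 (all but the one without high-dose replicate 1).

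LOX, the cross-linking amine oxidase, was the only one of the 10 called higher than at a low dose in the replicated extracts. It had 159, 148 and 150 CPM at the high dose of Schisandrae Fructus, against 109, 104 and 101 CPM at the low dose, and the medium dose had 115, 116 and 110 CPM. Every high-dose library was above every other library of the study. The high-dose log2 fold change was 0.54 ± 0.052 (n = 3 each, adjusted p = 1.36e-11, edgeR), and the medium-dose difference of 0.12 ± 0.052 did not pass the test (adjusted p = 0.996). LOX had 119 and 121 CPM at the high dose of Soshiho-tang, against 98.5 and 105 CPM at the low dose (0.24 ± 0.064, adjusted p = 0.00616, edgeR). This call was lost without low-dose replicate 2 (0.19, adjusted p = 0.12) or high-dose replicate 3 (0.22, adjusted p = 0.0563). For Zizyphi Semen LOX had 114, 112 and 113 CPM at the high dose, against 103, 93.4 and 102 CPM at the low dose (0.18 ± 0.053, adjusted p = 0.0297, edgeR). That call was lost without any 1 high-dose library or low-dose replicate 2 (adjusted p from 0.0746 to 0.187). For Yijin-tang LOX had 116, 113 and 116 CPM at the high dose, against 105, 104 and 101 CPM at the low dose. This difference of 0.16 did not pass the test (adjusted p = 0.0626, edgeR), although the libraries did not overlap. In 8 of 12 comparisons with the low dose, every LOX library of the higher dose lay above every low-dose library. Only 3 of the 12 were called, and the 2 comparisons of an extract share its low-dose libraries. The share of all genes separated in this way was not computed, so the count is a description only.

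The rise of LOX in Schisandrae Fructus exceeded that in Liriopis seu Ophiopogonis Tuber, where it had 103, 104 and 98.9 CPM at the high dose, against 98.2, 95.9 and 101 CPM at the low dose. The difference of the dose effects was 0.48 ± 0.074 (adjusted p = 1.56e-06, edgeR), again at unmatched doses of 310 and 500 µg/mL. LOX and THBS2 were 2 of 10 genes whose dose effect differed between these extracts, where 31% of all genes tested did. Between Longan Arillus and Zizyphi Semen 0 of 10 differed (3.95% of all genes did), with 5 at an unadjusted p under 0.05 and 1 by DESeq2.

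LOXL2, the other oxidase, fell slightly in Soshiho-tang. It had 903 and 873 CPM at the high dose, against 1060 and 1030 CPM at the low dose (log2 fold change -0.23 ± 0.056, adjusted p = 0.00162, edgeR), while LOX rose in the same libraries. In Schisandrae Fructus LOXL2 had 1100, 1090 and 1100 CPM at the high dose, against 1080, 1060 and 1050 CPM at the low dose, which did not pass the test. LOX and LOXL2 thus had opposite signs in Soshiho-tang.

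**Figure D2:**
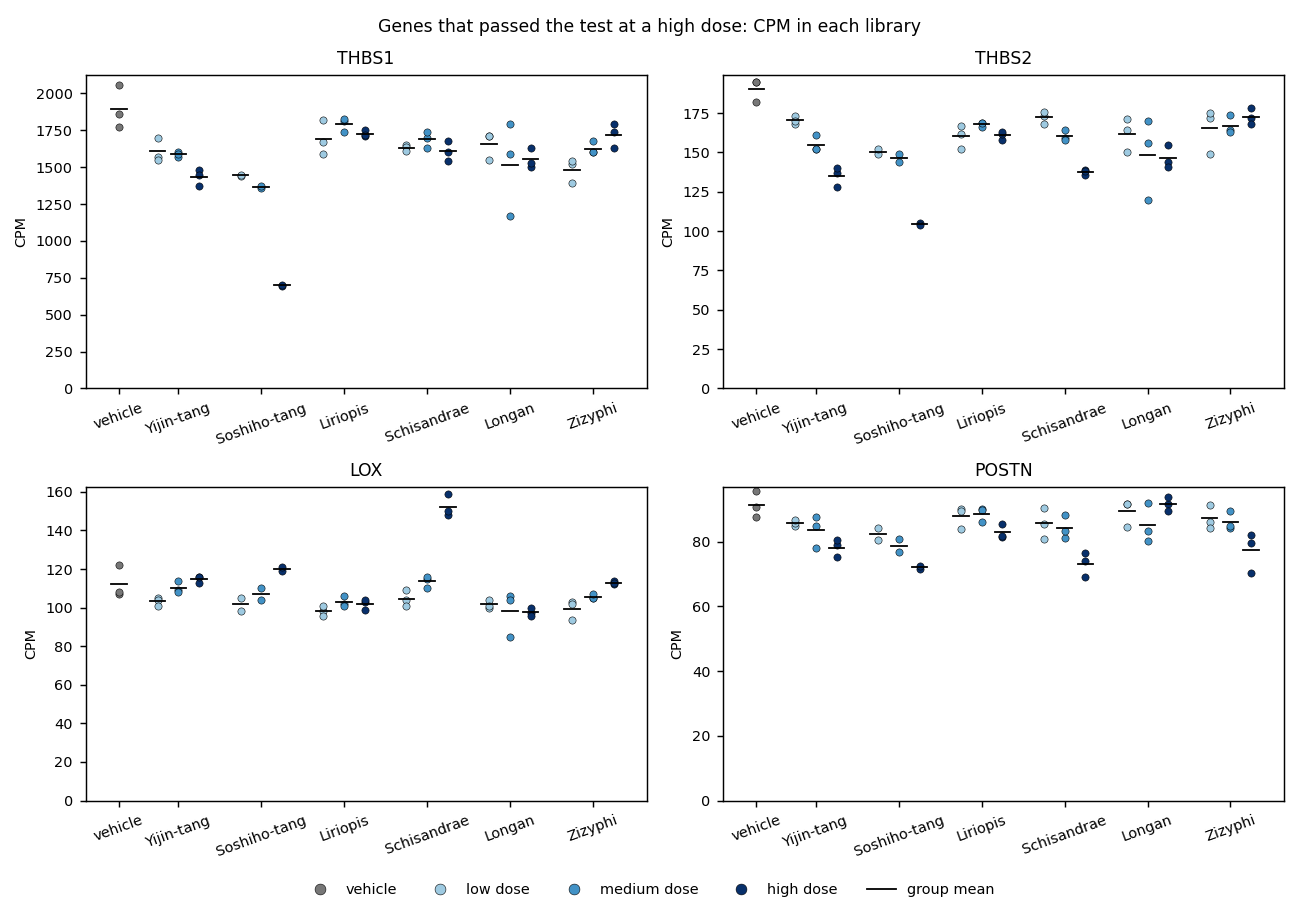
CPM of THBS1, THBS2, LOX and POSTN in each library of the vehicle and of 6 extracts, with doses low, medium and high from left to right within an extract; points are libraries and lines are group means. THBS1 at the high dose of Soshiho-tang (698 and 699 CPM) and LOX at the high dose of Schisandrae Fructus (148 to 159 CPM) stand apart from all other groups shown.

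At the medium dose no gene of the 10 was called against the low dose in any of the 6 extracts. Over these 60 values the log2 differences ran from -0.20 to 0.13, the lowest adjusted p was 0.708 (edgeR), 2 had an unadjusted p under 0.05 (THBS2 in Yijin-tang and LOX in Schisandrae Fructus), and DESeq2 called 0. Of all genes tested, 0.0224% were called at the medium dose of Yijin-tang, 0.0112% in Soshiho-tang, 0.0392% in Schisandrae Fructus and 0% in each of the other 3. THBS2 had 152, 152 and 161 CPM at the medium dose of Yijin-tang, between its low-dose and high-dose levels. Likewise its 159, 164 and 158 CPM at the medium dose of Schisandrae Fructus stood between those of the other doses.

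TNC, FN1, FBN1 and ABI3BP gave no call against a low dose in the 6 replicated extracts. With length and GC content corrected, ABI3BP passed at the high dose of Schisandrae Fructus (log2 difference 0.25, adjusted p = 0.0143, edgeR). With only the compared libraries fitted, FBN1 and FN1 passed at the high dose of Soshiho-tang (log2 differences -0.22 and -0.12, adjusted p = 0.00155 and 0.0213, edgeR), and TNC passed at the high dose of both Soshiho-tang and Schisandrae Fructus (-0.14 and -0.18). With no filter on low counts, TNC passed at the high dose of Schisandrae Fructus (-0.17, adjusted p = 0.0231), and FBN1 at that of Soshiho-tang (-0.22, adjusted p = 0.0436) and of Zizyphi Semen (0.20, adjusted p = 0.0409). The 12 log2 differences of TNC ran from -0.18 to 0.12, those of FN1 from -0.15 to 0.09, those of FBN1 from -0.22 to 0.21 and those of ABI3BP from -0.20 to 0.15. TNC had 546, 550 and 498 CPM at the high dose of Schisandrae Fructus, against 608, 589 and 614 CPM at the low dose, without overlap. Its 95% interval of -0.40 to 0.03 on the log2 scale leaves room for a modest fall. In Soshiho-tang the interval of FBN1 ran from -0.60 to 0.15 and that of FN1 from -0.49 to 0.25. The data do not show that these 4 genes were unaffected by dose.

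The second question was how the exposed cells differed from vehicle cells. TNC had 372 to 660 CPM (median 589) in the 51 exposed libraries of the replicated groups, against 732, 782 and 774 CPM in the vehicle libraries. FN1 had 1650 to 3670 CPM (median 3280) in the exposed libraries, against 4100, 4670 and 4690 CPM in the vehicle. FBN1 had 230 to 533 CPM (median 468) in the exposed libraries, against 585, 648 and 676 CPM in the vehicle. For TNC, FN1, FBN1 and THBS2 all 51 exposed libraries lay below all 3 vehicle libraries, a pattern that 1.99% of all genes tested also showed, and 0.616% the reverse. THBS2 had 104 to 178 CPM (median 161) in the exposed libraries, against 182, 195 and 195 CPM in the vehicle.

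The separation from the vehicle was already there at the low dose. In the 17 low-dose libraries TNC had 437 to 658 CPM, FN1 2280 to 3670 CPM and FBN1 323 to 510 CPM, all below the vehicle libraries named above. The median log2 difference from the vehicle over 6 extracts was -0.35 at the low, -0.38 at the medium and -0.41 at the high dose for TNC, and -0.48, -0.50 and -0.49 in the same order for FN1. For FN1 these medians were within 0.02 of each other over the doses. The log2 difference from the vehicle was below 0 in all 18 comparisons for TNC, FN1, FBN1, THBS2, THBS1, SPARC and ABI3BP. It was below 0 in 17 for POSTN and LOXL2 and in 13 for LOX, so this direction was shared by most of the 10. TNC was called lower in 12 of these 18, FN1 in 11, FBN1 in 11, THBS2 in 14 and THBS1 in 10. Between 1.02% and 49.9% of all genes were called in the same comparisons.

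The number of the 10 genes called against the vehicle differed between doses. It was 0, 5 and 6 at the low, medium and high dose of Yijin-tang (2.27%, 13.5% and 19.5% of all genes in the same order), 2, 3 and 8 in Soshiho-tang (1.77%, 4.03% and 30.5%) and 0, 2 and 7 in Schisandrae Fructus (1.02%, 5.23% and 49.9%). It was 4, 8 and 7 in Longan Arillus (5.28%, 25% and 15.5%), 6, 5 and 4 in Zizyphi Semen (18.3%, 13.9% and 13%) and 5, 3 and 1 in Liriopis seu Ophiopogonis Tuber (6.46%, 12.4% and 3.98%). The share of all genes called moved in the same direction as this count at each step in every extract but Liriopis. The 3 vehicle libraries enter all 18 comparisons, so these counts are not independent. The order by dose depended on the fit. The shares of all genes above belong to the main fit and do not apply to the following counts, which carry no such share. With only the compared libraries fitted, the counts at the low, medium and high dose were 5, 6 and 8 in Yijin-tang, 5, 6 and 8 in Soshiho-tang, 4, 4 and 7 in Schisandrae Fructus, 4, 0 and 5 in Longan Arillus, 4, 5 and 5 in Zizyphi Semen and 0, 5 and 4 in Liriopis.

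The remaining genes were closer to the vehicle. SPARC and POSTN were called lower in 5 of 18 comparisons each, LOXL2 in 3 and LOX in 4, and LOX was called higher in 1. ABI3BP was called in 0 (log2 differences of -0.28 to -0.02, with 3 of 18 groups wholly below the vehicle libraries). At the high dose of Soshiho-tang 8 of 10 genes were lower than in the vehicle. THBS1 led with 698 and 699 CPM, against 1770, 1860 and 2060 CPM in the vehicle (log2 fold change -1.44 ± 0.088, adjusted p = 2.36e-17, edgeR). At the high dose of Schisandrae Fructus 7 of 10 were called, with LOX higher by 0.44 ± 0.052 on the log2 scale (adjusted p = 2.1e-09, edgeR) and TNC lower by -0.52 ± 0.109 (adjusted p = 9.68e-05, edgeR).

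Transcript length was set beside these differences. A length index was computed per library as the median log2 deviation of 1554 genes with a longest transcript of at least 7000 bases minus that of 1759 genes of at most 2000 bases. It was between -0.67 and 0.20 (median 0.05) in the 51 exposed libraries, against 0.17, 0.34 and 0.45 in the vehicle libraries. Merged exons, a measure other than the longest transcript of the index, have 9636 bases for TNC, 17315 for FN1 and 16057 for FBN1. Those of ABI3BP, called in 0 comparisons with the vehicle, have 10978 bases, and those of THBS1 9158. In 12 of 15 exposed groups of 3, TNC, FN1 and FBN1 were lowest in the same library. FN1 was lowest in the library with the lowest length index in 12 of 15 groups, and FBN1 and ABI3BP in 11 each. TNC was lowest there in 10 groups, and so was THBS2, whose merged exons have 6412 bases. The others were THBS1 with 9 groups, LOXL2 with 7, LOX with 6, POSTN with 5 and SPARC with 4. With length and GC content corrected, an alternative added after the data were seen, the log2 differences from the vehicle stayed below 0 in all 18 comparisons for TNC (-0.41 to -0.13), FN1 (-0.43 to -0.17), FBN1 (-0.48 to -0.12) and THBS2 (-0.76 to -0.07), and the calls numbered 15, 8, 6 and 13. With that correction LOXL2 was also below 0 in all 18, at -0.37 to -0.02, with 6 calls in place of 3. THBS1 had 6 calls in place of 10, with log2 differences of -1.28 to 0.07 and a median of -0.09 in place of -0.24, and ABI3BP had a median of 0 in place of -0.13. The part of RNA quality or library making in these differences was not tested.

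Many of the calls against the vehicle were lost when 1 library was left out. Of the calls just given, 4 of 12 for TNC, 0 of 11 for FN1, 1 of 11 for FBN1, 6 of 14 for THBS2 and 4 of 10 for THBS1 held in every fit that left out 1 library. Some were lost whichever of several libraries was left out. At the medium dose of Schisandrae Fructus the TNC call was lost in 5 of 6 fits, while its log2 difference stayed between -0.43 and -0.36. Replicate 3 of the medium dose of Longan Arillus stood apart, with a length index of -0.67 and 372 CPM of TNC, 1650 CPM of FN1 and 230 CPM of FBN1. Without it the medium dose of Longan Arillus gave 1 called gene in place of 8. The log2 difference of FN1 was then -0.38 in place of -0.66, and that of TNC -0.30 in place of -0.51.

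**Figure D3:**
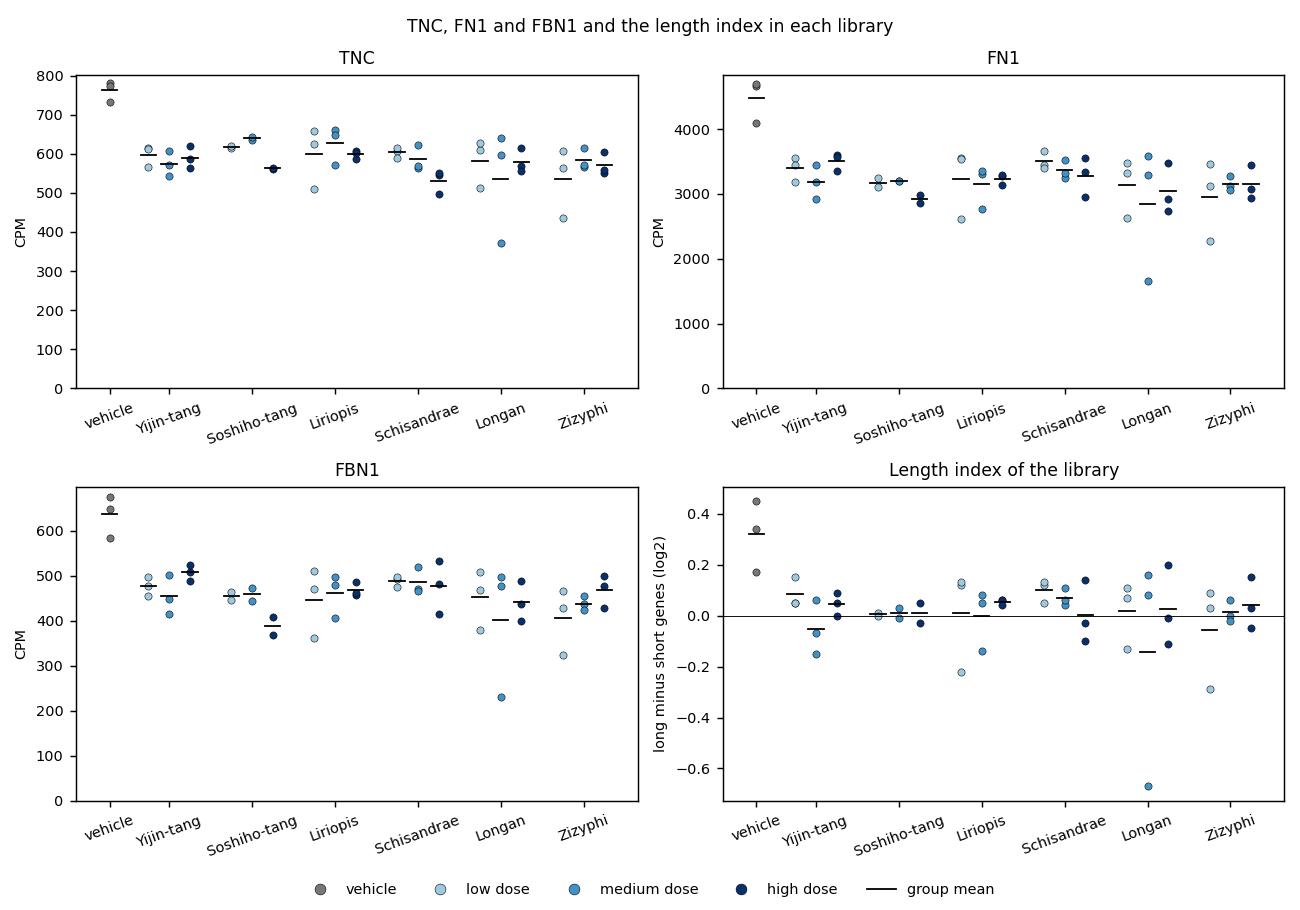
CPM of TNC, FN1 and FBN1, and the length index, in each library of the vehicle and of 6 extracts, with doses low, medium and high from left to right within an extract; points are libraries and lines are group means. All exposed libraries lie below the vehicle libraries for the 3 genes, and replicate 3 of the medium dose of Longan Arillus (372 CPM of TNC, length index -0.67) is the lowest point in every panel.

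Polygalae Radix and Aucklandiae Radix had 1 library per dose, so their differences have no replicate check and no test was made. The high dose of Polygalae Radix had the lowest level of any library for 9 of the 10 genes. TNC was at 763 CPM in the vehicle mean, 404 CPM at 1.2, 252 CPM at 6 and 29.2 CPM at 30 µg/mL, the last from 921 counts. The high dose was lower than the low dose by -3.79 and lower than the vehicle by -4.70 on the log2 scale. ABI3BP was at 2.06 CPM (65 counts) at the high dose, against 22.8 CPM at the low dose, and FN1 at 407 CPM, against 2080 CPM.

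The whole set was low at that dose. SPARC was 423 CPM at the high dose, against 2140 CPM at the low dose. LOXL2 was 186 CPM at the high dose, against 1010 CPM at the low dose, and THBS1 at 363 CPM at the high dose, against 1210 CPM at the low dose. POSTN was 19.8 CPM at the high dose, against 85 CPM at the low dose, and LOX at 32.5 CPM at the high dose, against 89.5 CPM at the low dose. In all, 9 of 10 genes differed by more than 2-fold between high and low dose, where 14.4% of all genes tested did so and reached 5 CPM in either library. THBS2, at 78.2 CPM at the high dose, against 136 CPM at the low dose, was the exception. Against the vehicle all 10 were past 2-fold (12.6% of all genes), 9 of them when library totals replaced the normalisation, where THBS2 came to -0.98 on the log2 scale. At the medium dose 0 of 10 were past 2-fold from the low dose (0.134% of all genes). Against the vehicle 3 of 10 were past 2-fold at the medium dose, TNC, FN1 and FBN1 (0.79% of all genes), and 2 at the low dose, FN1 and FBN1 (1.07%).

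The same library differed in other ways. Mitochondrial genes took 20.3% of its counts, against 14.2% at the low dose and 11.6% to 11.92% in the vehicle, and its scaling factor was 1.217, against 0.982 to 0.999 in the vehicle. The summed astroglial and neural stem markers, mostly VIM, were at 1550 CPM, against 7700 CPM in the vehicle, and the mural or fibroblast markers at 40.6 CPM, against 123 CPM in the vehicle. Its immune markers were at 65.4 CPM, against 204 CPM in the vehicle, its epithelial markers at 27.7 CPM, against 128 CPM, its neuronal markers at 29.3 CPM, against 130 CPM, and its endothelial markers at 19.2 CPM, against 34.8 CPM in the vehicle, so all 6 marker lists were lower. Its length index of 0.46 was as high as that of the vehicle libraries. The part of these differences in the low levels of the 10 genes was not tested.

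At the high dose of Aucklandiae Radix 6 of the 10 genes were lower by more than 2-fold than at the low dose (5.22% of all genes were past 2-fold in either direction). THBS2 was 50.2 CPM at the high dose, against 145 CPM at the low dose, and THBS1 at 541 CPM at the high dose, against 1360 CPM at the low dose. ABI3BP was 9.74 CPM at the high dose, against 28.1 CPM at the low dose. The other 3 were FN1, POSTN and FBN1, with log2 differences of -1.09, -1.09 and -1.20. The oxidases were closer to the low dose, LOX at 89.9 CPM at the high dose, against 96.7 CPM at the low dose, and LOXL2 at 924 CPM at the high dose, against 1060 CPM at the low dose. TNC and SPARC differed by -0.90 and -0.39 on the log2 scale. Against the vehicle 7 of 10 were past 2-fold (8.97% of all genes), and 0 of 10 were between medium and low dose (0.19%). FN1, THBS2 and FBN1 were past 2-fold from the vehicle at the medium dose (1.98% of all genes) and 0 of 10 at the low dose (0.392%). The length index of the high-dose library was -0.75, the lowest of the study, against -0.13 at the low dose. Its summed neuronal markers were at 268 CPM, against 146 CPM at the low dose, its endothelial markers at 14.2 CPM, against 32.1 CPM at the low dose, and its mural or fibroblast markers at 65.8 CPM, against 102 CPM at the low dose. Its epithelial markers were at 97.9 CPM, against 137 CPM at the low dose, its immune markers at 272 CPM, against 240 CPM at the low dose, and its astroglial markers at 7690 CPM, against 7910 CPM at the low dose. On the first principal component of all libraries it had the highest score, 80.8, where the next library had 41.4. The part of these in the levels of the 10 genes was not tested.

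**Figure D4:**
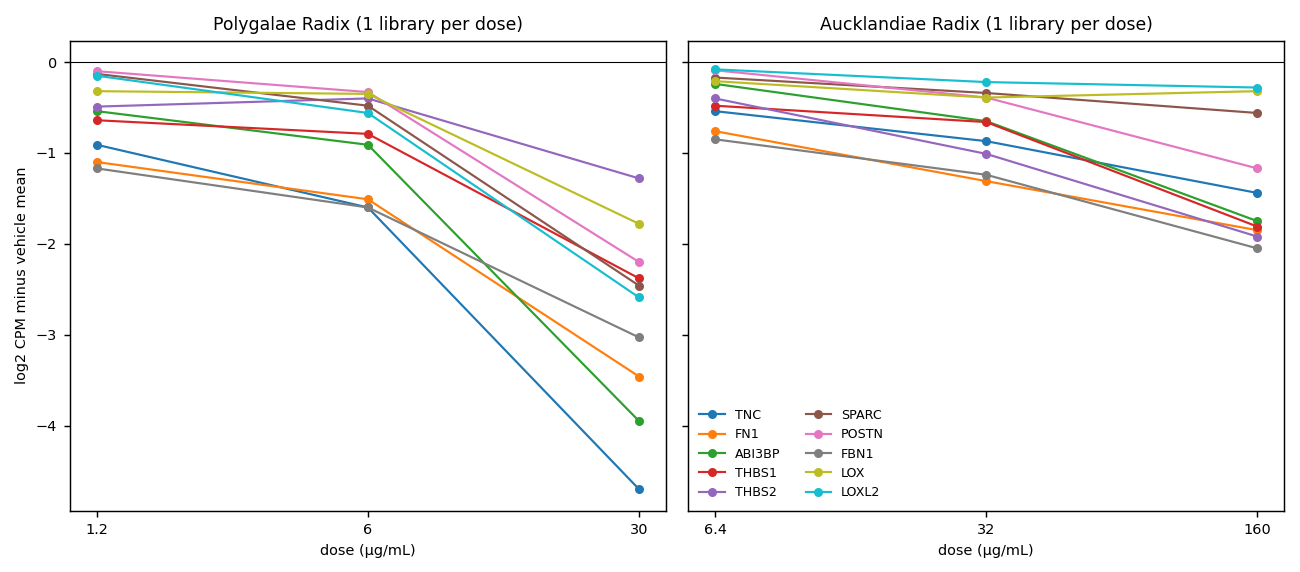
Log2 CPM minus the vehicle mean for the 10 genes at the low, medium and high dose of Polygalae Radix (left) and Aucklandiae Radix (right), with 1 library per dose and doses in µg/mL. TNC reaches -4.70 at 30 µg/mL of Polygalae Radix, while LOX and LOXL2 stand at -0.32 and -0.28 at 160 µg/mL of Aucklandiae Radix.

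Other genes of the matrix were counted from lists of related genes. Among 46 tested matrix glycoproteins outside the 10, 16 were called at the high dose of Soshiho-tang, 13 lower and 3 higher (median log2 difference -0.20, against 0.002 over all genes, of which 18.6% were called). These included LTBP3, a binder of latent TGF-beta, at 143 CPM at the high dose, against 216 CPM at the low dose, and the TGF-beta-induced TGFBI at 3460 CPM at the high dose, against 4370 CPM at the low dose (adjusted p = 2.05e-09 and 1.57e-08, edgeR). In Schisandrae Fructus 21 of 46 were called, 14 lower and 7 higher, close to the 45.9% of all genes (median -0.05), with the integrin ligand CCN1 at 783 CPM at the high dose, against 420 CPM at the low dose, and its relative CCN3 at 2.94 CPM at the high dose, against 6.3 CPM at the low dose. In Yijin-tang 1 rose and 3 fell (6.97% of all genes were called), in Zizyphi Semen 1 rose and 1 fell (5.96%), in Longan Arillus 1 fell (0.868%) and in Liriopis none was called (0%).

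Of 16 further cross-linking and collagen-modifying enzymes, 9 fell and none rose in Soshiho-tang (median -0.18), where 18.6% of all genes were called. LOXL1 was 170 CPM at the high dose, against 221 CPM at the low dose, and LOXL3 at 22.7 CPM at the high dose, against 28.8 CPM at the low dose. The prolyl hydroxylase P4HA1 was 129 CPM at the high dose, against 203 CPM at the low dose. LOX rose while LOXL1, LOXL2 and LOXL3 fell, and LOXL4 was not called; LOXL1, LOXL3 and LOXL4 are named here as relatives of LOX, after their values were seen. In Schisandrae Fructus 7 of 16 were called, 6 lower and 1 higher, no more than the 45.9% of all genes (median 0), the lysyl hydroxylase PLOD2 being at 205 CPM at the high dose, against 264 CPM at the low dose, and P4HA2, a prolyl hydroxylase, at 152 CPM at the high dose, against 120 CPM at the low dose. LOXL1, LOXL3 and LOXL4 were not called there. Yijin-tang gave 1 rise and 1 fall (6.97% of all genes called) and Longan Arillus 2 falls (0.868%). Zizyphi Semen gave 1 rise (5.96%) and Liriopis none (0%).

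Of 21 matrix proteases and inhibitors, 15 were called in Schisandrae Fructus, 7 higher and 8 lower (median 0.14), where 45.9% of all genes were called. The urokinase receptor PLAUR was 153 CPM at the high dose, against 58.1 CPM at the low dose, and the membrane collagenase MMP14 at 1590 CPM at the high dose, against 843 CPM at the low dose (for these genes in this order, adjusted p = 1.39e-20 and 4.58e-19, edgeR). In Soshiho-tang 5 rose and 5 fell (median -0.04, 18.6% of all genes called), with ADAMTS1, a protease known to cleave thrombospondins, at 43.2 CPM at the high dose, against 21.9 CPM at the low dose, and the gelatinase MMP2 at 293 CPM at the high dose, against 395 CPM at the low dose. In Yijin-tang 6 rose and 1 fell (6.97% of all genes called), in Zizyphi Semen 2 rose and 1 fell (5.96%), in Longan Arillus 2 rose (0.868%), and in Liriopis none was called.

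Of 24 readouts of TGF-beta, YAP and SRF signalling, 13 fell and 2 rose in Soshiho-tang (median -0.24), where 18.6% of all genes were called. SMAD6, an inhibitory member of the SMAD family, was 5.96 CPM at the high dose, against 17.2 CPM at the low dose. The ligand TGFB3 was 7.81 CPM at the high dose, against 14.9 CPM at the low dose, and ACTA2, smooth muscle actin, at 60.8 CPM at the high dose, against 102 CPM at the low dose. In Schisandrae Fructus 6 rose and 9 fell (median -0.03, 45.9% of all genes called), with the signal transducer SMAD3 at 209 CPM at the high dose, against 139 CPM at the low dose. Yijin-tang gave 3 rises and 6 falls (6.97% of all genes called), ACTA2 being at 63.8 CPM at the high dose, against 91.4 CPM at the low dose. Zizyphi Semen gave 6 rises and 1 fall (5.96%), and Longan Arillus (0.868%) and Liriopis (0%) none. Marker genes of other cells moved as well. Of 5 mural or fibroblast markers 3 fell in Soshiho-tang and 4 in Schisandrae Fructus, and of 6 tested astroglial and neural stem markers 1 and 4 fell in the same order and 1 rose in each. Of 4 neuronal markers 2 fell in each extract and 1 rose in Schisandrae Fructus. Of 2 tested epithelial markers both fell in Soshiho-tang, and 1 rose and 1 fell in Schisandrae Fructus. Of 3 tested immune markers 1 fell in Soshiho-tang, and 1 rose and 1 fell in Schisandrae Fructus, where 2 of 3 tested endothelial markers rose. The summed mural or fibroblast markers were at 75.1 and 75.5 CPM in the high-dose libraries of Soshiho-tang, against 106 and 110 CPM at the low dose, and at 74.5 to 83.4 CPM at the high dose of Schisandrae Fructus, against 114 to 119 CPM at the low dose. The summed astroglial markers were at 7680 and 7880 CPM at the high dose of Soshiho-tang, against 7630 and 7730 CPM at the low dose, and at 6950 to 7180 CPM at the high dose of Schisandrae Fructus, against 7330 to 7470 CPM at the low dose. The summed neuronal markers were at 88.8 and 91.3 CPM at the high dose of Soshiho-tang, against 131 and 135 CPM at the low dose, and at 82.4 to 93.1 CPM at the high dose of Schisandrae Fructus, against 134 to 136 CPM at the low dose. The summed epithelial markers were at 76.8 and 84.2 CPM at the high dose of Soshiho-tang, against 142 and 144 CPM at the low dose, and at 77 to 95.4 CPM at the high dose of Schisandrae Fructus, against 119 to 133 CPM at the low dose. The summed immune and endothelial markers were higher at the high dose of both, at 222 to 239 and 35.8 to 38.8 CPM in Soshiho-tang, against 203 to 209 and 31.9 to 32.9 CPM at the low dose, and at 254 to 265 and 39.6 to 43.7 CPM in Schisandrae Fructus, against 205 to 217 and 33.3 to 34.1 CPM at the low dose. The part of all these in the changes of the 10 genes was not tested.

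Among the genes called first in the other extracts, the largest log2 change was -0.52, for ACTA2 in Yijin-tang. At the high dose of Yijin-tang the log2 changes were -0.43 for CCN3, 0.19 for the fibulin EFEMP1 and -0.37 for CCN2, 0.20 for the protease inhibitor SERPINE2, 0.30 for the collagenase MMP1 and -0.23 for MMP2, and 0.21 for SMAD3. The transglutaminase TGM2 had log2 changes of 0.14 in Yijin-tang, -0.20 in Longan Arillus and 0.16 in Zizyphi Semen, all past the test. At the high dose of Longan Arillus the urokinase PLAU changed by 0.33, MMP14 by 0.19, P4HA1 by -0.26 and CCN3 by -0.39. At that of Zizyphi Semen the receptor AXL changed by 0.22, PLAU by 0.21, CCN1 by 0.28, the stromelysin MMP3 by -0.27, LTBP3 by -0.18 and SMAD6 by -0.27. In Soshiho-tang the lists also gave ADAMTS2 at -0.66, PLOD2 at -0.47, HAPLN1 at -0.58 and PLAUR at 0.64, and in Schisandrae Fructus ADAMTS14 at -0.69 and LTBP4 at 0.85. CCN3 thus fell in Yijin-tang, Longan Arillus and Schisandrae Fructus. CCN1, CCN2 and TGFBI stand in 2 of the lists and count in both.

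Genes with the pattern most like that of TNC, FN1 and ABI3BP were sought by Pearson's r of the group means of log2 CPM over 11115 genes. Over the 19 replicated groups FN1 was most like FBN1 (r = 0.971), TRRAP (0.951) and ZNF462 (0.95), and TNC most like PRKDC (0.947), DOCK10 (0.947) and AHNAK (0.941). ABI3BP was most like GPATCH8 (0.865). Over all 25 groups, where the single libraries of Polygalae Radix and Aucklandiae Radix span most of the range, FN1 was most like NID2 (0.99), FBN1 (0.989) and CSPG4 (0.988), and TNC most like ACLY (0.994). The points share the libraries and their length index, and the values are descriptions without a test. The list for TNC and ABI3BP thus changed with the groups used, while FBN1 stood among the 3 nearest to FN1 in both.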

How the data were processed

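RNA-seq was analysed from 60 libraries of SW1783 cells. The authors deposited RSEM expected counts, 1 value per gene and library, which need not be whole (10.86% were not). The submitters' processing notes name FastQC 0.11.9, Trim Galore 0.6.5, STAR 2.7.3a, RSEM 1.3.3 and the build hg38; annotation release and strand setting: not given in the sources used here. Libraries were stranded and read as 100 bp pairs, and RNA integrity was above 7, per the labels' protocols.

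Expected counts were rounded, and 17851 genes passed edgeR's filterByExpr. CPM values use TMM factors over all 60 libraries. One edgeR 4.0.16 quasi-likelihood model (R 4.3.3) covered the 54 libraries of the 19 replicated groups (35 residual degrees of freedom), with Benjamini-Hochberg adjustment over all genes tested. It gave contrasts of high and medium with low dose, of each dose with the vehicle, and of the high-against-low change between extracts of 1 library set. Groups of 1 library were compared by the log2 difference of CPM with a prior count of 2. The fit recovered genes changed by known folds in simulated counts. That run checked the model code only and gives no rate of missed or false calls for these libraries.

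Replicate numbers were checked for pairing: same-numbered libraries correlated at -0.15 to 0.25 in their deviations from the group means, and none of 25 comparisons with 3 pairs had every pair above 0.1, so the numbers were not used as pairs. No 2 libraries of a group agreed within sampling noise. Genes named outside the 10 are the 3 most significant of each list per extract, apart from 1 that is not reported here, and likeness was computed for TNC, ABI3BP and FN1 over genes of at least 5 CPM. The 10 genes, the lists and these rules were chosen with earlier results of these data known. Alternatives were DESeq2 1.42.0, library totals, no filter, the compared libraries alone, a replicate block, leaving out each library and, chosen after seeing the data, a correction for length and GC content (17716 genes). Precision is limited by 1 to 3 libraries per group.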

Additional observations from a re-analysis of the deposited data

Results flagged for a closer look

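The high-against-low change of 4 gene and extract pairs differed between extracts that share a library set, by edgeR's quasi-likelihood test of the difference itself. For Soshiho-tang minus Yijin-tang these were 2 of 10 genes, where 9.39% of all genes tested differed. For Schisandrae Fructus minus Liriopis they were 2 of 10, where 31% of all genes did, so that count is no more than the share of all genes. THBS1 changed by -0.89 more on the log2 scale in Soshiho-tang than in Yijin-tang (adjusted p = 3.32e-07), and both libraries at the high dose of Soshiho-tang lay below all low-dose libraries of both decoctions. SPARC changed by -0.24 more in Soshiho-tang than in Yijin-tang (adjusted p = 0.00743), a call lost without the filter on low counts (adjusted p = 0.168). THBS2 changed by -0.34 more in Schisandrae Fructus than in Liriopis seu Ophiopogonis Tuber (adjusted p = 0.0051), and LOX by 0.48 more (adjusted p = 1.56e-06), at high doses of 310 and 500 µg/mL. All 4 differences kept their direction and stayed called in the fits that left out 1 library, where each contrast again called 2 of the 10 genes.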

How the results depend on the processing

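Counts of the 10 genes called were recomputed under each alternative, and those that moved by more than 1.5 times are given with the main count in parentheses. The share of all genes called under each alternative is not given here, so these counts do not show whether the 10 genes moved apart from the rest. DESeq2 called 3 for Yijin-tang high against low dose (1), 2 for its low dose against the vehicle (0), 3 for the Liriopis high dose against the vehicle (1) and 1 for Longan Arillus minus Zizyphi Semen (0). Library totals in place of TMM gave 1 for Zizyphi Semen high against low (2) and, against the vehicle, 3 for the Yijin-tang medium dose (5), 0 for the Liriopis high dose (1), 2 for its low dose (5), 0 for the Schisandrae Fructus medium dose (2) and 1 for the Longan Arillus low dose (4). Without a filter on low counts the values against the vehicle were 4 for the Yijin-tang low dose (0), 5 for the Soshiho-tang medium (3) and low dose (2), 4 for the Liriopis high dose (1), and 4 for the Schisandrae Fructus medium (2) and low dose (0), with 1 for Longan Arillus minus Zizyphi Semen (0). With only the compared libraries fitted, high against low gave 4 for Yijin-tang (1) and 0 for Zizyphi Semen (2), the vehicle comparisons gave 5 for the Yijin-tang low dose (0), 6 and 5 for the Soshiho-tang medium and low dose (3 and 2), 4, 5 and 0 for the Liriopis high, medium and low dose (1, 3 and 5), 4 and 4 for the Schisandrae Fructus medium and low dose (2 and 0) and 0 for the Longan Arillus medium dose (8), and Soshiho-tang minus Yijin-tang gave 4 (2). The length and GC correction, chosen after seeing the data, gave 4 for Yijin-tang (1), 5 for Schisandrae Fructus (3) and 1 for Longan Arillus (0) high against low, 3 and 1 for the Yijin-tang medium and low dose (5 and 0), 2 and 3 for the Liriopis high and low dose (1 and 5), 1 for the Schisandrae Fructus low dose (0) and 5 for the Longan Arillus medium dose (8) against the vehicle, and 3 for Longan Arillus minus Zizyphi Semen (0). The replicate block called 2 for Yijin-tang high against low (1) and moved no other count by more than 1.5 times. The causes were not tested.

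Leaving out 1 library gave, for high against low dose, 1 to 2 calls in Yijin-tang, 4 to 5 in Soshiho-tang, 3 in Schisandrae Fructus, 0 to 1 in Zizyphi Semen, and 0 in Longan Arillus, Liriopis and every medium dose. Against the vehicle the ranges for the high, medium and low dose were 5 to 6, 1 to 5 and 0 to 1 in Yijin-tang, 7 to 9, 1 to 3 and 0 to 2 in Soshiho-tang, 0 to 2, 0 to 4 and 0 to 5 in Liriopis, 5 to 7, 0 to 2 and 0 in Schisandrae Fructus, 2 to 7, 1 to 9 and 0 to 4 in Longan Arillus, and 2 to 4, 0 to 5 and 3 to 6 in Zizyphi Semen. Between extracts the range was 0 to 1 for Longan Arillus minus Zizyphi Semen and 2 for the others. In a group of 2 the lone library left was assumed to vary like the other groups.

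Of 4050 single-gene values under an alternative, 3719 kept their direction or stayed uncalled, 228 lost the call, 103 gained it and 0 called values changed sign.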
